A study of Mus musculus with 6 samples.

Results

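The transcripts of 8 enzymes of cholesterol synthesis (*Hmgcs1*, *Mvd*, *Idi1*, *Fdft1*, *Sqle*, *Lss*, *Cyp51* and *Dhcr7*) were examined in mouse oocytes. They were taken by gene symbol from a count table of 53465 genes, and all 8 were found. The question was which steps of the pathway lack transcripts in the oocyte, and whether quercetin, a plant flavonol, changed them. Kunming (KM) females aged 9 to 10 months were injected with pregnant mare serum gonadotropin before their oocytes were collected. The oocytes were stripped of their cumulus cells by pipetting and matured in vitro for 16 h in M16 medium. The control group had no quercetin, and the other group had 10 μM quercetin, dissolved in DMSO. Whether the controls received DMSO is not stated, so its effect cannot be told apart from that of quercetin. RNA of M II oocytes was sequenced from 3 pools per group, each of 15 oocytes from 3 mice. It is not stated whether different pools came from different mice, so p-values measure only the spread between these pools. Young oocytes and cumulus cells were not analysed here, so the levels below have no counterpart in either.

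Cholesterol is built from acetyl-CoA through mevalonate, isoprene units, squalene and lanosterol, and the last enzymes trim and reduce lanosterol to cholesterol. The pathway is controlled by the SREBP transcription factors, which sterols hold back in the endoplasmic reticulum. In the mouse follicle, cumulus cells are known to make cholesterol and pass it to the oocyte, which makes little of its own.

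The control pools held 8671210, 7880467 and 8905681 counts, and the quercetin pools held 8465142, 9938743 and 8109613. At these depths 3 counts, the upper limit that a count of 0 allows, correspond to between 0.302 and 0.381 CPM (counts scaled to the library size). This limit takes in only the error of counting. Levels between genes are given as RPKM, the CPM after TMM scaling (edgeR's correction for library composition) divided by the annotated exon length in kilobases. The median RPKM was 0.441 over genes with at least 1 count and 3.29 over the 11842 genes with enough counts to be tested. On the first principal component, which held 32.4% of the variance, control pools were at -3.3, 31.3 and 10.1 and quercetin pools at -37.9, -30.9 and 30.8. The groups overlapped on it, with quercetin replicate 3 close to control replicate 2.

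The oocyte label was checked against marker genes. All 10 oocyte markers passed the filter on low counts, with summed levels of 23810, 26750 and 25430 CPM in the controls and 27060, 29100 and 25010 CPM with quercetin. The sums hide a spread between pools. The egg coat genes *Zp1*, *Zp2* and *Zp3*, named after their values were seen, were lower in replicate 1 of each group than in the other 4 pools, with *Zp2* at 81.7, 571 and 231 RPKM in the controls, against 47.9, 310.4 and 485 RPKM with quercetin. The most abundant oocyte marker per length was *Dppa3*, a maternal-effect gene, at 9578 ± 1354 RPKM (SD, n = 6 pools). Of 16 cumulus and granulosa markers, *Amh*, *Amhr2*, *Foxl2*, *Ptx3* and *Slc38a3* had 0 counts in every pool. The most abundant cumulus marker per length was *Cyp19a1*, the aromatase, at 15.3 ± 1.47 RPKM (SD, n = 6 pools). The 16 markers summed to 101, 82.1 and 97.35 CPM in the controls and to 109, 110.1 and 108 CPM with quercetin, so after TMM scaling the quercetin pools were all above the control pools. By share of library counts the groups overlapped, at 0.0104%, 0.00869% and 0.00975% in the controls, against 0.0103%, 0.0101% and 0.0114% with quercetin. Without *Cyp19a1*, which made up most of each sum, the groups overlapped after scaling too (35.8, 23.85 and 28.7 CPM against 34.3, 34.4 and 35.2 CPM). An unadjusted p under 0.05 was found for 1 of 5 tested cumulus markers, *Kitl* (log2 fold change 0.59, standard error 0.21, named after its values were seen), for 0 of 10 oocyte markers and for 0 of 2 tested blood and stroma markers, against 4.03% of all tested genes. Quercetin pools were higher without overlap for 2 of the 5 tested cumulus markers, *Cyp19a1* (log2 fold change 0.22, standard error 0.15) and *Kitl*, for 1 of the 10 oocyte markers, *Gdf9* (0.22, standard error 0.14, named after its values were seen, with overlap by library size only), and for 0 of 2 blood and stroma markers, against 5.42% of all tested genes. *Tnfaip6*, a gene of cumulus expansion also named after its values were seen, had 0 counts in each of the controls, against 2, 8 and 4 with quercetin, and stayed under the filter (two-sided exact permutation test, p = 0.1, n = 3 pools per group). The groups overlapped for the other tested cumulus markers, also named after their values were seen. These were *Ptgs2* (log2 fold change -0.68, standard error 0.61), *Has2* (0.05, standard error 0.54) and *Nr5a2* (0.09, standard error 0.24). *Ptgs2* had 31, 11 and 13 counts in the controls, against 11, 4 and 18 with quercetin. Under the filter, the groups overlapped for every cumulus marker other than *Tnfaip6*. Among 8 blood and stroma markers, the globin genes *Hba-a1* and *Hbb-bs* and the collagen gene *Col1a1* had 0 counts, *Cyp17a1* had at most 2, and *Pecam1* was the most abundant at 5.38 ± 0.398 RPKM. In such pools, fewer cells of a type and less RNA per cell cannot be told apart. The part of remaining cumulus cells in the enzyme counts, or in their differences between the groups, was not tested.

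For the pathway, 18 steps with 19 enzymes are described, the 8 members and 11 others. An enzyme passed the filter at 12 of the 18 steps. The 6 steps without one were those of *Mvk*, *Pmvk* and *Mvd*, which follow each other from mevalonate to isopentenyl diphosphate, of *Lss*, and of *Ebp* and *Dhcr7* among the late steps. Every enzyme had reads, and 0 of 19 stayed at or under 3 counts in every pool. With a limit of 10 counts in every pool the number was 4 (*Mvk*, *Mvd*, *Tm7sf2* and *Dhcr7*), and 3 (*Mvk*, *Mvd* and *Tm7sf2*) had a mean of at most 3 counts. Per length, 5 enzymes were over 10 RPKM, 6 were between 1 and 10 RPKM, and 8 were under 1 RPKM. Of the counts on the 8 members, 96.45% fell on *Hmgcs1* and *Idi1*.

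**Figure D1:**
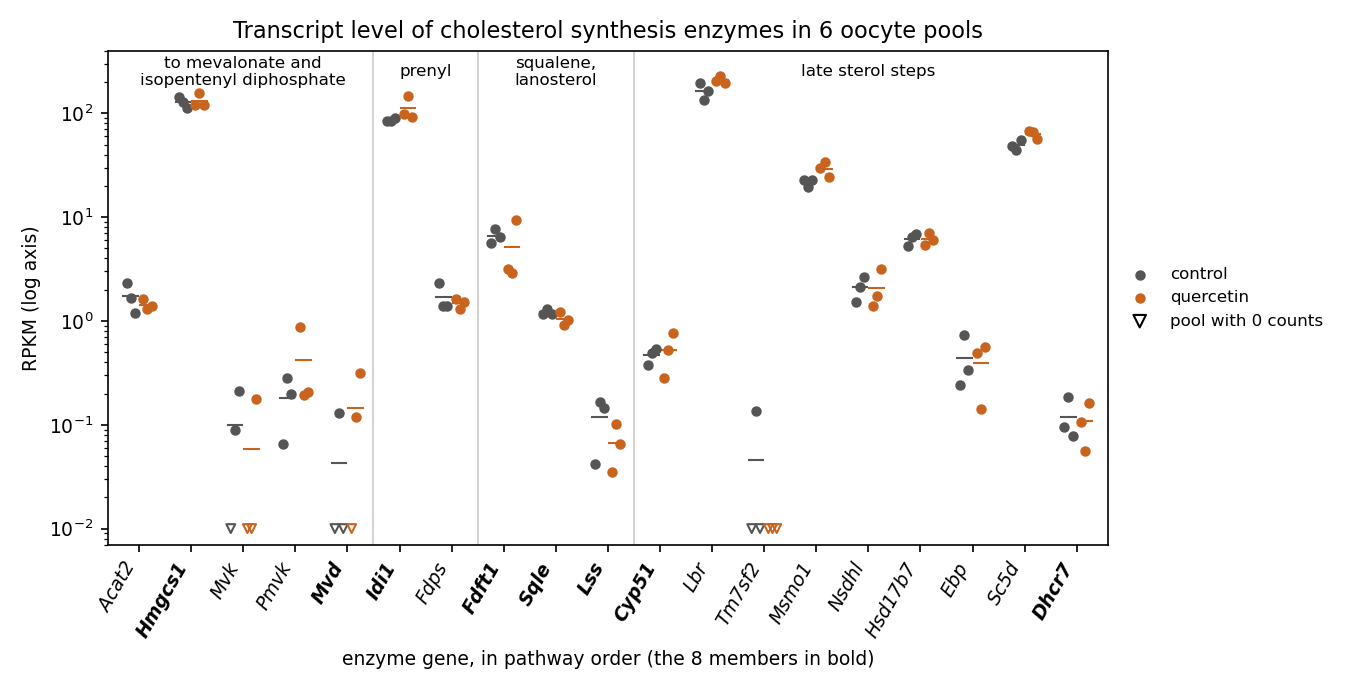
Level of 19 cholesterol synthesis enzymes in RPKM (log axis) in pathway order, with the 8 members in bold. Each point is 1 pool (3 control, 3 quercetin), each short line a group mean, and open triangles at the bottom mark pools with 0 counts, which a log axis cannot place. *Hmgcs1*, *Idi1*, *Lbr*, *Msmo1* and *Sc5d* lie over 10 RPKM in every pool, while *Mvk*, *Pmvk*, *Mvd*, *Lss*, *Cyp51*, *Tm7sf2*, *Ebp* and *Dhcr7* lie under 1 RPKM in every pool.

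*Hmgcs1* (ENSMUSG00000093930, chromosome 13 from 119690379 to 119708260, plus strand, GRCm38) encodes the cytosolic HMG-CoA synthase, which joins acetoacetyl-CoA and acetyl-CoA. It had 5832, 4884 and 4636 counts in the controls, against 4462, 6616 and 4652 with quercetin. Quercetin replicate 2 was the highest pool, and after scaling the other quercetin pools lay within the range of the controls. Its level was 130.0 ± 16.7 RPKM (SD, n = 6 pools), at percentile 98.1 of the genes with at least 1 count. Its log2 fold change, quercetin over control, was 0.06 (standard error, SE, 0.16, adjusted p = 0.995 by edgeR's quasi-likelihood fit, Benjamini-Hochberg adjusted), and by library size only it was -0.04. Of its exon length, 12.1% overlaps *Gm48342* on the opposite strand, which had 220, 259 and 241 counts in the controls, against 119, 136 and 340 with quercetin. Whether counting used the strand is not given in the sources used here, so reads of the overlap cannot be told apart.

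*Acat2*, which acts before it and makes acetoacetyl-CoA, was less abundant per length, at 1.58 ± 0.411 RPKM (SD, n = 6 pools), although 43.7% of its sequence also occurs in other genes, mainly *Acat3*. *Acat2* had 53, 35 and 27 counts in the controls, against 33, 30 and 30 with quercetin. The groups overlapped, and its log2 fold change was -0.27 (SE 0.33).

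*Mvd* (ENSMUSG00000006517, chromosome 8 from 122433601 to 122443422, minus strand) encodes the decarboxylase that forms isopentenyl diphosphate. It had 0, 2 and 0 counts in the controls, against 0, 2 and 5 with quercetin, or 9 counts in 51970856. Only quercetin replicate 3 was over the floor of 3 counts, and 3 pools were at 0. Its level was 0.0937 ± 0.124 RPKM (SD, n = 6 pools), and no stretch of its exons overlaps or shares sequence with another gene. *Mvd* was not tested in the fit, and log2 CPM did not part the groups (two-sided exact permutation, p = 0.7, and 0.1 is the smallest p this design can give).

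Both kinases before *Mvd* were also low. *Mvk*, the mevalonate kinase, had 0, 2 and 5 counts in the controls, against 0, 0 and 4 with quercetin. *Pmvk*, the phosphomevalonate kinase, had 1, 4 and 3 counts in the controls, against 12, 3 and 3 with quercetin. Quercetin replicate 1 was thus the highest pool for *Pmvk* and was at 0 for *Mvk* and *Mvd*. For all 3 genes the groups overlapped, and none passed the filter.

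*Idi1* (ENSMUSG00000058258, chromosome 13 from 8885501 to 8892451, plus strand) encodes the isomerase that interconverts both isoprene units. It had 2666, 2461 and 2839 counts in the controls, against 2752, 4739 and 2755 with quercetin. After scaling, its RPKM was 85.1, 84.1 and 90.8 in the controls, against 98.05, 148 and 92.2 with quercetin. Every quercetin pool was higher than every control pool, and quercetin replicate 2 stood well over the rest. Its log2 fold change was 0.38 (SE 0.19, adjusted p = 0.988 by edgeR's quasi-likelihood fit, Benjamini-Hochberg adjusted), and 0.14 without quercetin replicate 2. Of its sequence, 27.1% also occurs in other genes, among them *Gm13502*, with 186, 189 and 240 counts in the controls, against 234, 353 and 267 with quercetin. The level of *Idi1* was 99.7 ± 24.1 RPKM (SD, n = 6 pools). *Fdps*, which joins isoprene units to farnesyl diphosphate, was at 1.59 ± 0.373 RPKM, with a log2 fold change of -0.20 (SE 0.29) and 26.7% of its exon length within *Gm43738*.

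*Fdft1* (ENSMUSG00000021273, chromosome 14 from 63145150 to 63179578, minus strand) encodes squalene synthase, the first enzyme committed to sterols. It had 213, 268 and 244 counts in the controls, against 108, 112 and 337 with quercetin. Quercetin replicates 1 and 2 were lower than every control pool, and quercetin replicate 3 was higher than every control pool. Its log2 fold change was -0.35 (SE 0.42, adjusted p = 0.988 by edgeR's quasi-likelihood fit, Benjamini-Hochberg adjusted). Without quercetin replicate 3 it was -1.11, with an adjusted p = 0.183 (edgeR, Benjamini-Hochberg), and over all 6 ways of leaving out a pool it ran from -1.11 to -0.06. Quercetin replicates 1 and 2 also lay apart from the other pools on the first principal component, and the part of this in the spread was not tested. Its level was 5.86 ± 2.51 RPKM (SD, n = 6 pools), and 18.3% of its exon length overlaps *Ctsb* on the opposite strand. *Gm6781*, which shares sequence with it, had 30, 36 and 50 counts in the controls, against 17, 17 and 47 with quercetin.

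*Sqle* (ENSMUSG00000022351, chromosome 15 from 59315077 to 59331192, plus strand) encodes squalene epoxidase, known as a control point of the pathway. It had 58, 60 and 58 counts in the controls, against 54, 46 and 48 with quercetin. By library size only every quercetin pool was lower than every control pool, but after TMM scaling the groups overlapped. Its log2 fold change was -0.21 (SE 0.25, adjusted p = 0.988 by edgeR's quasi-likelihood fit, Benjamini-Hochberg adjusted). *Sqle* varied little between pools, at 1.13 ± 0.142 RPKM (SD, n = 6 pools).

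*Lss* (ENSMUSG00000033105, chromosome 10 from 76531588 to 76557138, plus strand) encodes lanosterol synthase, which closes the sterol rings. It had 4, 15 and 14 counts in the controls, against 3, 10 and 6 with quercetin. Replicate 1 was the lowest pool of each group, and the groups overlapped. *Lss* stayed under the filter, and its log2 CPM differed by -0.57, or by -1.07 to -0.28 with 1 pool left out (two-sided exact permutation test, p = 0.4, n = 3 pools per group). Its level was 0.0925 ± 0.0549 RPKM (SD, n = 6 pools), over a long annotated exon length of 10787 bases.

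*Cyp51* (ENSMUSG00000001467, chromosome 5 from 4081145 to 4104746, minus strand) encodes the cytochrome P450 that removes the first methyl group of lanosterol. It had 15, 18 and 21 counts in the controls, against 10, 21 and 29 with quercetin. The lowest and the highest pool were both quercetin pools. Its log2 fold change was 0.17 (SE 0.42, adjusted p = 0.994 by edgeR's quasi-likelihood fit, Benjamini-Hochberg adjusted), and -0.20 without quercetin replicate 3. Its level was 0.496 ± 0.165 RPKM (SD, n = 6 pools), and 3.8% of its exon length overlaps *Akap9* on the opposite strand. *Akap9* had more counts, at 299, 247 and 231 in the controls, against 135, 149 and 361 with quercetin. Reads of this overlap cannot be told apart either, and their part in the counts of *Cyp51* was not tested.

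*Dhcr7* (ENSMUSG00000058454, chromosome 7 from 143823145 to 143848410, plus strand) encodes the reductase that turns 7-dehydrocholesterol into cholesterol. It had 5, 9 and 4 counts in the controls, against 5, 3 and 8 with quercetin. The groups overlapped, and quercetin replicate 2 was at the floor of 3 counts. *Dhcr7* stayed under the filter, and its log2 CPM differed by -0.11 (two-sided exact permutation test, p = 0.8, n = 3 pools per group). Its level was 0.114 ± 0.0498 RPKM (SD, n = 6 pools).

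Between *Cyp51* and *Dhcr7*, several enzymes were abundant. *Lbr*, an inner nuclear membrane protein that is also a sterol reductase, had the highest level of the 19 enzymes at 187 ± 33.9 RPKM (SD, n = 6 pools). *Tm7sf2*, which catalyses the same reduction, had 0, 5 and 0 counts in the controls, against 0 with quercetin in any pool. Nearly all counts at that step were thus on *Lbr*, of which 10.7% of the exon length overlaps *Dnah14* and a small RNA gene. *Dnah14*, on the opposite strand, had 2944, 2090 and 2682 counts in the controls, against 2873, 3659 and 2618 with quercetin.

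*Msmo1*, the sterol methyl oxidase, had 1259, 1009 and 1242 counts in the controls, against 1457, 1907 and 1270 with quercetin. *Sc5d*, the sterol desaturase that acts just before *Dhcr7*, had 2110, 1814 and 2394 counts in the controls, against 2633, 2916 and 2332 with quercetin. After TMM scaling, and by library size only, every quercetin pool was higher than every control pool for both genes. The log2 fold change was 0.43 for *Msmo1* (SE 0.16, unadjusted p = 0.0279, and adjusted p = 0.988 by edgeR with Benjamini-Hochberg adjustment). It was 0.35 for *Sc5d* (SE 0.15, unadjusted p = 0.0389, and adjusted p = 0.988 by edgeR with Benjamini-Hochberg adjustment). *Lbr* had a log2 fold change of 0.36 (SE 0.17), but its groups overlapped, since control replicate 1 was above quercetin replicate 3.

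The remaining enzymes of the late part were at lower levels. *Hsd17b7* and *Nsdhl*, which act in removing the methyl groups at carbon 4, were at 6.16 ± 0.744 RPKM and 2.10 ± 0.690 RPKM (SD, n = 6 pools). The log2 fold change was -0.02 for *Hsd17b7* (SE 0.20) and 0.00 for *Nsdhl* (SE 0.37). *Ebp*, the sterol isomerase, had 5, 14 and 7 counts in the controls, against 9, 3 and 11 with quercetin. The groups overlapped for *Ebp*, which stayed under the filter.

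The members were then put in order of their RPKM, and neighbours were compared within pools. The order was *Hmgcs1*, *Idi1*, *Fdft1*, *Sqle*, *Cyp51*, *Dhcr7*, *Mvd* and *Lss*. The tests used the pools that gave the order. Of 7 neighbouring pairs, 5 differed in 6 of 6 pools (two-sided exact sign-flip permutation test, p = 0.0312 for each). This p is the smallest that 6 pools can give, and the adjusted p was 0.0438 over the 7 pairs by Benjamini-Hochberg. These p-values measure only the spread of a ratio between pools. Errors of length or shared sequence that are the same in every pool are not in them. *Hmgcs1* was 1.32-fold over *Idi1* in RPKM, the smallest of these 5 steps, or 1.51-fold with the lengths of the longest transcripts. Of the sequence, 13.1% for *Hmgcs1* and 27.1% for *Idi1* also occurs in other genes, and its part in this step was not tested. *Idi1* was 18.15-fold over *Fdft1*, the largest step. *Fdft1* was 4.76-fold over *Sqle*, *Sqle* 2.32-fold over *Cyp51*, and *Cyp51* 4.21-fold over *Dhcr7*, or 2.29-fold with the lengths of the longest transcripts. In RPKM, *Dhcr7*, *Mvd* and *Lss* did not differ beyond their spread (exact sign-flip permutation test, p = 0.406 for *Dhcr7* against *Mvd* and p = 0.781 for *Mvd* against *Lss*), and their order changed with the length used.

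Across the whole table, the groups differed for 0 of 11842 genes, or 0%, with fold changes over 2 and adjusted p-values under 0.05 by edgeR's quasi-likelihood fit, Benjamini-Hochberg adjusted. DESeq2 called 12 and edgeR's likelihood ratio test 16, while limma-voom called 0. At an unadjusted p under 0.05 there were 477 genes, or 4.03%. This number was 1563 of 12258 without quercetin replicate 3 and 241 of 12186 without control replicate 2. Of the 8 members 5 passed the filter, 0 were called by edgeR, DESeq2, the likelihood ratio test or limma-voom, and 0 had an unadjusted p under 0.05. Of the 11 other enzymes 7 passed the filter, 0 were called by any of these tools, and 2 (*Msmo1* and *Sc5d*) had an unadjusted p under 0.05. A p that misses the threshold does not show that values did not differ.

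Every quercetin pool was higher than every control pool for 5.42% of tested genes, and lower for 5.17%. Among the 5 tested members this held for 1 higher (*Idi1*) and 0 lower, and among the 7 other tested enzymes for 2 higher (*Msmo1* and *Sc5d*) and 0 lower. These 3 genes parted the groups by library size only too, as did the cumulus markers *Cyp19a1*, *Kitl* and *Tnfaip6*. Every other cumulus marker had overlapping groups, with log2 fold changes of -0.68 for *Ptgs2*, 0.05 for *Has2* and 0.09 for *Nr5a2*. The part of cumulus cells in the differences of these 3 enzymes was not tested. The median log2 fold change was 0.06 over the 5 tested members and 0.00 over the 7 other enzymes, against -0.03 over all tested genes. In summed level, the members were at 984, 925 and 877 CPM in the controls and at 923, 1263 and 919.9 CPM with quercetin. Only quercetin replicate 2 stood above the controls in this sum. The 11 other enzymes, with *Lbr* the most abundant, summed to 1355, 1031 and 1236 CPM in the controls and to 1537, 1675 and 1401 CPM with quercetin. Every quercetin pool was higher there, also by share of library counts (0.140%, 0.109% and 0.124% against 0.145%, 0.154% and 0.147%). Over all 19 enzymes the groups overlapped, at 2339, 1955 and 2112 CPM in the controls, against 2460, 2938 and 2321 CPM with quercetin. Their shares of library counts overlapped too (0.2411%, 0.207% and 0.2115% against 0.2327%, 0.2703% and 0.2439%).

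**Figure D2:**
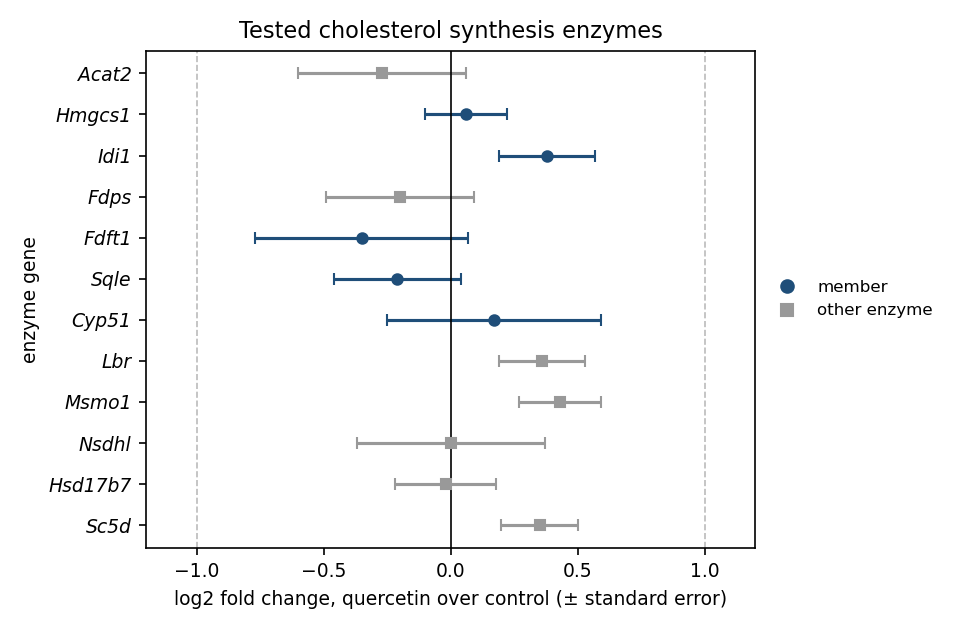
Log2 fold change (quercetin over control, n = 3 pools each) of the 12 described cholesterol synthesis enzymes that passed the filter, in pathway order from top to bottom. Points are edgeR estimates, bars are ± 1 standard error, and dashed lines mark the fold change of 2 used as a threshold. All 12 points lie between the dashed lines, from -0.35 for *Fdft1* to 0.43 for *Msmo1*.

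Genes that branch from the pathway or resemble its members were mostly present. *Nus1*, a subunit of the enzyme that makes dolichol precursors, was at 92.05 ± 10.2 RPKM, near *Idi1* in level. *Coq2* and *Pdss2*, which serve coenzyme Q synthesis, were at 8.65 ± 1.81 RPKM and 3.13 ± 1.14 RPKM (SD, n = 6 pools). *Idi2*, a paralogue of *Idi1*, had at most 3 counts in any pool. Of the 7 genes 6 passed the filter, and 0 had an unadjusted p under 0.05, against 4.03% of all tested genes. Quercetin pools were higher without overlap for 1 of the 6, against 5.42% of all tested genes. This was *Ggps1* (log2 fold change 0.42, SE 0.21), named here after its values were seen.

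Of 13 sterol regulators 12 passed the filter, and 0 had an unadjusted p under 0.05, against 4.03% of all tested genes. The most abundant regulators per length were *Rnf139*, a ubiquitin ligase of the endoplasmic reticulum, at 29.2 ± 3.76 RPKM, *Insig1*, the sterol-dependent anchor of SREBP, at 21.1 ± 1.44 RPKM, and *Mbtps2*, a protease that releases SREBP, at 14.2 ± 2.75 RPKM (SD, n = 6 pools). Of the exon length of *Rnf139*, 26.2% overlaps *Tatdn1* on the opposite strand and *Gm49356*, and of that of *Mbtps2*, 28.4% overlaps *Yy2* on the same strand. Quercetin pools were lower than control pools without overlap for 2 of the 12, against 5.17% of all tested genes. These were *Srebf1* and *Nr1h2*, which with *Srebf2* are named after their values were seen. *Srebf1*, which encodes an SREBP, had 135, 92 and 98 counts in the controls, against 82, 74 and 60 with quercetin. Its log2 fold change was -0.55 (SE 0.25, adjusted p = 0.988 by edgeR's quasi-likelihood fit, Benjamini-Hochberg adjusted). *Nr1h2*, a nuclear receptor for oxysterols, had a log2 fold change of -0.40 (SE 0.22). *Srebf2*, the SREBP gene most tied to cholesterol synthesis, had 74, 65 and 55 counts in the controls, against 70, 29 and 43 with quercetin, and its groups overlapped.

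Of 14 genes of cholesterol uptake, transport and storage 7 passed the filter. Of these, 0 had an unadjusted p under 0.05, against 4.03% of all tested genes. Groups without overlap were found for 0, against 5.42% of all tested genes higher with quercetin and 5.17% lower. *Npc1* and *Npc2*, which release cholesterol from lysosomes, were at 28.7 ± 2.17 RPKM and 7.27 ± 1.35 RPKM, and *Soat1*, which esterifies cholesterol for storage, was at 4.81 ± 0.312 RPKM (SD, n = 6 pools). *Soat2* had 0 counts, *Abca1*, a cholesterol exporter, at most 2, and *Lipa*, the lysosomal lipase, at most 3. *Scarb1*, the HDL receptor, named after its values were seen, had 82, 121 and 139 counts in the controls, against 93, 95 and 129 with quercetin, with overlapping groups.

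Promoter sequences were searched for letters linked to sterol control, because enzymes known to be controlled together differed widely in level. RefSeq windows from 250 bases before to 50 bases after the gene start numbered 19 for 16 of the 19 enzymes, some genes having more than 1 start, and *Fdft1* and *Sqle* were among those without one. TCACNCCAC, a sterol regulatory element, was in 1.24% of all 32851 mouse windows and in 1 of these 19, that of *Hmgcs1*. CCAAT was in 37.4% of all windows and in 15 of the 19, 1 for each of 15 enzymes, and CACGTG in 7.15% of all windows and in 3 of the 19 (*Dhcr7*, *Hsd17b7* and *Sc5d*). Both strands were searched, and a match describes letters in a window, not a bound site. Other forms of the sterol regulatory element were not searched, so a window without a match is not shown to lack one. The 250 bases before the start are shown for *Hmgcs1*, the member with the highest level, and *Mvd*, among the lowest, from 5′ to 3′ on the strand of the gene. They are from RefSeq on GRCm38.p6, at chr13:119690101-119690350 (plus strand) and chr8:122443423-122443672 (minus strand), and capitals mark the motif matches.
*Hmgcs1*: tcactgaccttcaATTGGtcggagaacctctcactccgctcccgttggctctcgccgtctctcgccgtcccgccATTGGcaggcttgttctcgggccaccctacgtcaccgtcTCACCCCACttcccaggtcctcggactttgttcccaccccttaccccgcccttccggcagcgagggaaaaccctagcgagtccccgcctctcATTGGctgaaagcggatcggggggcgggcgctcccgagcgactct
*Mvd*: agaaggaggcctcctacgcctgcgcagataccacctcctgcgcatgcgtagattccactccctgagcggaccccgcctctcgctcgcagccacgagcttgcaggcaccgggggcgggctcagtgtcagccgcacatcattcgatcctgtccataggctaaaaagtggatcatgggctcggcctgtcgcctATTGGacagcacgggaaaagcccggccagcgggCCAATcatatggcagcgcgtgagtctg
The *Hmgcs1* stretch holds 4 matches and that of *Mvd* 2, and all but the sterol regulatory element of *Hmgcs1* are CCAAT or its reverse complement.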

How the data were processed

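RNA was copied with the Smart-seq HT kit, which primes on poly(A) tails, and sequenced from 6 oocyte pools. The authors deposited counts per Ensembl gene for each pool, without normalization. The paper's methods name Hisat2 and GRCm38, while the submitters' processing notes name TopHat2 2.0.6, CASAVA 1.8 and mm10. The counting program and its handling of strand and multiply matching reads are not given in the sources used here.

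Symbols matched 53274 of 53465 identifiers. Coordinates and exon lengths came from GENCODE release M21 (GRCm38). Genes passing filterByExpr (minimum count 10) were tested with edgeR 4.0.16 (TMM, quasi-likelihood test, Benjamini-Hochberg adjustment over all tested genes) in R 4.3.3. The standard error is the log2 fold change divided by the square root of F. Permutation tests took log2 CPM (prior count 2), and 0.5 counts were added before log2 ratios between genes. The fit was tested on simulated counts. Shared sequence means shared 31-base words.

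Named genes were the 19 described enzymes. Some genes of the lists are not reported here and are left out of list counts. Of branch, regulator and uptake genes, those with an unadjusted p under 0.05, the 3 highest per length and those at or under 3 counts in every pool were named, and of markers the most abundant and those at or under 3 counts. Overlapping genes were named from the annotation. Members and lists were chosen with earlier results of these data known. Alternatives used DESeq2 1.42.0, limma-voom (limma 3.58.1), edgeR's likelihood ratio test, other scalings and filters, a replicate block, and each pool left out in turn.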

Additional observations from a re-analysis of the deposited data

How the results depend on the processing

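Members called and other enzymes called were 0 under every alternative run. Genes called were 0 with the other scalings, with at least 10 counts in every pool and with limma-voom. They were 3 without a filter, 12 with DESeq2 and 16 with edgeR's likelihood ratio test. With an unadjusted p under 0.05 and a fold change over 2 there were 103. Leaving out 1 pool gave 2 genes without control replicate 1, 2 without control replicate 2, 7 without quercetin replicate 1, 1 without quercetin replicate 2, 6 without quercetin replicate 3, and 0 without control replicate 3. The cause was not tested.

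Enzymes at or under the floor were 0, but 4 at a limit of 10 counts and 3 by a mean of at most 3 counts, as these limits admit more genes. Leaving out 1 pool gave 0 to 1, the 1 being *Tm7sf2* without control replicate 2 and *Mvd* without quercetin replicate 3.

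The log2 fold change of *Hmgcs1* was -0.04 by library size only, where the median over all tested genes was -0.11 in place of -0.03. That of *Nsdhl* was 0.02 with DESeq2's size factors, 0.01 without a filter and 0.02 with DESeq2. Leaving out 1 pool turned the direction in some cases, from -0.09 to 0.14 for *Hmgcs1*, -0.20 to 0.46 for *Cyp51*, -0.47 to 0.01 for *Acat2*, -0.32 to 0.09 for *Fdps*, -0.42 to 0.22 for *Nsdhl* and -0.12 to 0.07 for *Hsd17b7*. The log2 CPM difference of *Dhcr7* ran from -0.36 to 0.17. *Idi1*, *Fdft1*, *Sqle*, *Lbr*, *Msmo1* and *Sc5d* kept their direction in every alternative run. Neighbouring pairs that differed numbered 5 with the longest transcript and 6 in CPM, where *Dhcr7* and *Mvd* also differed. By library size only there were 5, but a scaling cancels in a ratio within a pool, so this is no test of the pairs.

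Same-numbered pools correlated by 0.296, 0.101 and -0.0303 in their deviations from the group means. Between pools of different numbers the mean was -0.0612. These values do not settle whether same-numbered pools share more than a number. With the replicate block, 0 genes and 0 members were called.

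Counts describe polyadenylated RNA, and enzyme protein and cholesterol were not measured here.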
